A study of Mus musculus with 18 samples.

Results

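Kidney cortex that had passed through aristolochic acid injury and a remodeling period was compared with vehicle cortex in mice whose proximal tubules lack Klf15. The comparison rests on 6 of the 18 libraries of the study, 3 from PTKO AA 4wk and 3 from PTKO DMSO, chosen by their labels. It covers 13624 of the 24062 genes in the table, those that reach 1 RPKM in 3 or more of the 18 libraries. RPKM is a read count divided by transcript length and by library depth. PTKO stands for Klf15PTKO, mice of the C57Bl/6 strain in which Klf15 is deleted in the proximal tubule; fl/fl stands for Klf15fl/fl mice, which carry the floxed gene. PTKO AA 4wk mice received aristolochic acid I for 2 weeks and were then left for 2 weeks of remodeling, and PTKO DMSO mice received the vehicle. No source used here gives the Cre line, the exons removed or the week at which vehicle cortex was taken, so vehicle and remodeled cortex may differ in age. Both groups carry the deletion, and among the labelled groups none has Cre with an intact Klf15. Nothing in the labels ties the 3 libraries of a group to separate animals; the p-values therefore describe the spread between these samples, which may be technical.

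The proximal tubule reabsorbs most of the filtered glucose, amino acids, phosphate and protein, and it draws its energy largely from fatty acids burned in mitochondria and peroxisomes. Aristolochic acid, a plant toxin, enters these cells through organic anion transporters, forms DNA adducts and is known for injury that ends in tubular atrophy and fibrosis. Klf15, a zinc finger transcription factor, is known as a regulator of amino acid, glucose and lipid metabolism. Injured tubule cells typically switch off transport and metabolic genes and switch on a repair program, while immune cells and matrix-producing fibroblasts gather around them.

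The targeted gene was measured first. In PTKO DMSO cortex Klf15 stood at 28.5, 31.9 and 32.6 RPKM, against a mean of 59.9 ± 6.33 RPKM in fl/fl DMSO cortex (SD, n = 3). The cortex holds other Klf15-expressing cells, and the table has 1 value per gene, so the removed and the remaining exons cannot be told apart. At AA 4wk the PTKO libraries read 9.11, 8.81 and 9.53 RPKM, all below every PTKO DMSO library. Klf15 fell by 1.65 ± 0.26 on the log2 scale (log2 fold change with its SE, adjusted p = 5.2e-05). Klf15 lies on chromosome 6, 90462576 to 90475238, on the plus strand of GRCm38.

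The 6 libraries hold about 10981000 to 21922000 recovered reads each, and genes at 1 RPKM or more number 11641 to 11792 in the vehicle libraries and 13232 to 13254 at AA 4wk. Across genes, libraries of one group correlated at 0.986 to 0.995, and libraries of different groups at 0.806 to 0.85. The libraries are called vehicle library 1 to 3 and remodeled library 1 to 3, by the numbers in their labels. Vehicle library 3 stood apart for injury genes. Its Havcr1 was 24.9 RPKM against 0.978 and 0.62 in the other vehicle libraries, its Lcn2 9.34 against 1.71 and 1.81, and its Spp1 966 against 501 and 534. Remodeled library 2 stood apart for fat cell genes, with Cfd at 38.9 RPKM, Adipoq at 4.5 and Plin1 at 1.7, where the other 5 libraries held at most 0.393, 0 and 0.146. The same library had the lowest level of many tubule transporters and enzymes, and the part of attached fat in the results was not tested. Of 14 markers of fat and other tissues 7 were abundant enough to test and 1, Fabp4, rose, a call lost without remodeled library 2 (adjusted p = 0.12). Without vehicle library 1 or 2 or remodeled library 3 it was lost as well (adjusted p = 0.0681, 0.126 and 0.0899), and without vehicle library 3 (adjusted p = 0.0502). Results that these libraries decide are also given without them. The kidney markers Slc34a1, Lrp2, Umod, Aqp2 and Nphs1 were all present in vehicle cortex, which does not tell cortex from other parts of the kidney. Ddx3y, on the Y chromosome, read 9.82 to 14.0 RPKM and Xist at most 0.00424 in all 6 libraries; of 4 Y-linked genes tested 1, Kdm5d, rose, and it turned to -0.22 with quantile normalization. Ren1 (renin of the kidney), Eno1 (a glycolysis enzyme of every cell) and Hba-a1 (hemoglobin) are listed at 0 in all 6, so a 0 in this table need not mean an absent transcript.

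Most of the measured transcriptome differed between remodeled and vehicle PTKO cortex. Of the 13624 genes, 9839 were called at an adjusted p under 0.05 (72.2%), 7488 higher (55%) and 2351 lower (17.3%). Without vehicle library 3 the counts were 7097 and 2162, and without remodeled library 2 they were 6916 and 2123. The split between higher and lower depends on how the libraries are scaled. The median gene changed by 0.40, and 76.1% of the calls were higher. With median-of-ratios scaling, which sets that median to 0.00, 4482 genes were higher and 4616 lower (49.3% higher), and with quantile normalization 3985 and 4967 (44.5% higher). Under all 3 scalings 3311 genes rose and 2266 fell. A list median given "relative to the median gene" has this 0.40 subtracted, and counts of genes that rose are to be read against the 55% of all genes.

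The lowest remodeled library lay above the highest vehicle library for 8247 genes (60.5%), and the highest below the lowest vehicle library for 2708 (19.9%). Genes that rose by more than 1 on the log2 scale numbered 2928 and genes that fell by more than 1 numbered 836; beyond 3 there were 327 and 72. The genes that fell were abundant ones. They took 49.4%, 49% and 48.8% of the reads in the vehicle libraries and 20.7%, 17.7% and 20% at AA 4wk. The genes that rose went from 24.1%, 24.2% and 24.7% of the reads to 52.4%, 56.1% and 53%. Both sets were chosen by their calls in these same libraries, which fixes the direction of each shift, so only its size is informative. Kap alone, the androgen-regulated kidney protein of the proximal tubule, held 3.07%, 2.71% and 3.03% of the reads in vehicle cortex and 0.0919%, 0.0361% and 0.0698% at AA 4wk. In bulk tissue, fewer cells of a type and less RNA per cell cannot be told apart, here or in any result below.

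**Figure D1:**
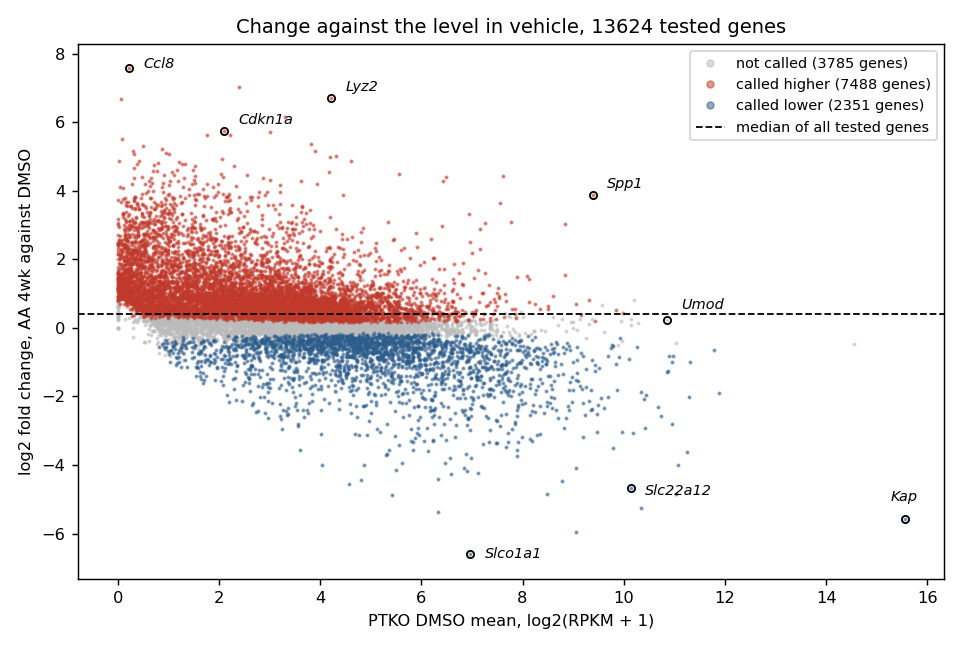
Log2 fold change of AA 4wk against DMSO in PTKO cortex (vertical axis) against the mean level in PTKO DMSO libraries as log2(RPKM + 1) (horizontal axis), 1 point per tested gene, coloured by call, with the median of all genes (0.40) as a dashed line. Called higher genes crowd at low vehicle levels, and Kap, the most abundant gene shown, lies at -5.58.

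The 15 largest rises among called genes whose groups did not overlap, with a higher group mean of at least 10 RPKM, were mostly injury, lysozyme, chemokine and complement genes: Ccl8, Lcn2, Lyz2, Retnla, Havcr1, Cdkn1a, C3, Ccl5, Sprr1a, Lyz1, S100a6, Krt20, Cfp, Clec4n and Ctss. Their log2 fold changes ran from 5.17 to 7.57. Lcn2, a lipocalin released by damaged tubules, read 1.71, 1.81 and 9.34 RPKM in vehicle and 457, 676 and 542 at AA 4wk (7.01 ± 0.57, adjusted p = 2.85e-07). Lyz2, the lysozyme of myeloid cells, went from 19, 9.16 and 24.8 RPKM to 1842, 2238 and 1414 (6.70 ± 0.72). Its near-identical neighbour Lyz1 went from 0.0721, 0 and 0.11 to 37.7, 69.3 and 40.2 RPKM, and reads could be misassigned between these copies. Ccl8, a chemokine for monocytes, was listed at 0, 0.478 and 0 RPKM in vehicle and stood at 184, 279 and 194 at AA 4wk. That the groups do not overlap was a condition for naming these genes and the 15 falls. The gene with the smallest adjusted p of the whole table was Cdkn1a, the cyclin-dependent kinase inhibitor p21, with 3.47, 3.09 and 3.28 RPKM in vehicle and 207, 222 and 255 at AA 4wk (5.74 ± 0.18, adjusted p = 3.07e-11). Gdf15, Stat3, Tmem43 and Muc1 had the next smallest adjusted p among rises.

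The 15 largest falls were Slco1a1, Slc7a13, Kap, Ces1g, Inmt, Azgp1, Slc22a6, Cyp4b1, Slc22a12, Gm6300, Ces1f, Pzp, Slc22a22, D630029K05Rik and Apom, among them 5 carriers of the Slc and Slco families and the neighbouring carboxylesterases Ces1f and Ces1g, which are similar enough to share reads. Slco1a1, an organic anion uptake carrier, went from 134, 126 and 113 RPKM to 0.488, 0.172 and 0.207, a fall by 6.61 ± 0.31 on the log2 scale (adjusted p = 4.76e-09). Slc7a13, an apical amino acid carrier, went from 530, 529 and 537 RPKM to 15.1, 3.74 and 7.55. Kap went from 50475, 44612 and 49783 RPKM to 1512, 594 and 1148. Inmt, an N-methyltransferase, fell from 1271, 1305 and 1287 RPKM to 36.6, 27 and 35.6. Gm6300, an unprocessed pseudogene, read 21.3, 18.5 and 28.8 RPKM in vehicle and is listed at 0 in all 3 remodeled libraries. Dpys, an enzyme of pyrimidine breakdown, had the smallest adjusted p among falls, with 12.5, 10.1 and 11 RPKM in vehicle and 0.0197, 0.0263 and 0.0316 at AA 4wk (adjusted p = 9.29e-11).

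**Figure D2:**
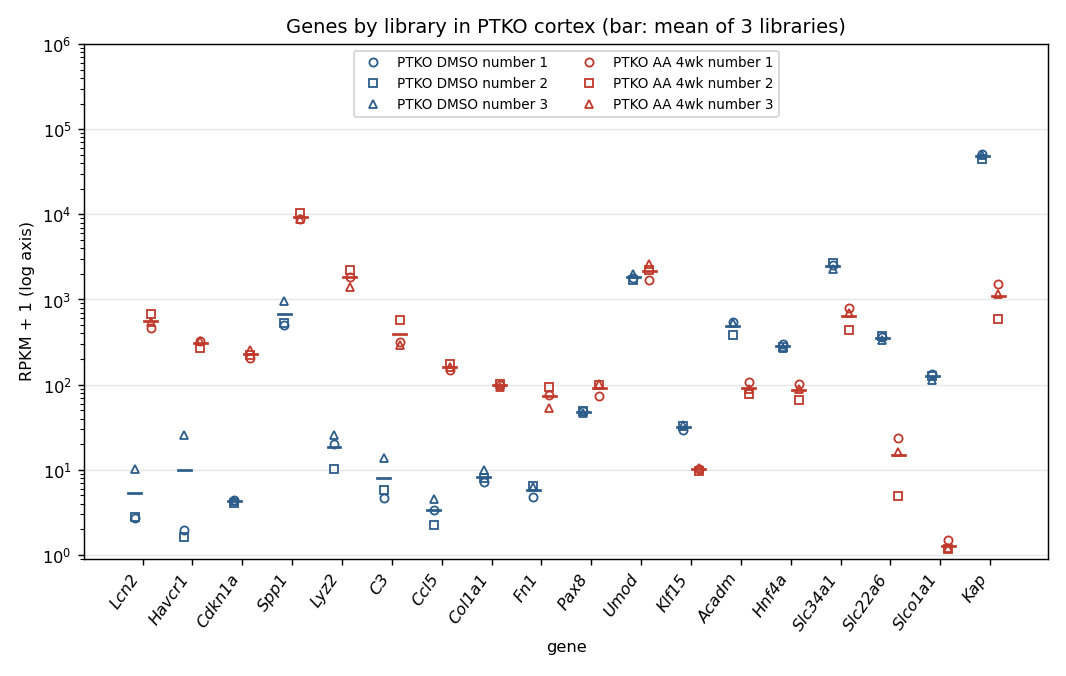
RPKM + 1 on a log axis for 18 genes in each of the 3 PTKO DMSO (blue) and 3 PTKO AA 4wk (red) libraries, with marker shape giving the library number and bars the group means. Except for Umod, the red and blue points of a gene do not overlap; the blue triangles of Lcn2 and Havcr1 are vehicle library 3.

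Because these 30 genes moved furthest, their promoters were searched for motifs of factors known from tubule identity and injury, in the 250 bases before each RefSeq start (GRCm38.p6). The motifs were CAAAGTCCA for HNF4, TGANTCA for AP-1 and GGAATTTCC for NF-kB, read on both strands. RefSeq promoters were matched for 25 of the 30 genes, and 2 of these held a match. AP-1 letters were found for 1 of 13 genes that rose (7.69%) and 1 of 12 that fell (8.33%), beside 5.71% of all tested genes and 6.75% of all promoters. HNF4 and NF-kB letters were in none of the 25, beside 0.471% and 0.441% of all tested genes. The shares for AP-1 are near the background. Both promoters with a match are printed 5′ to 3′ on the strand of the gene, with the motif in capitals. Sprr1a (chr3:92485882-92486131, minus strand), a cornified envelope protein that rose, has AP-1 letters starting 146 and 116 bases before the start. Cyp4b1 (chr4:115647722-115647971, minus strand), a cytochrome P450 that fell, has them 169 bases before.
Sprr1a: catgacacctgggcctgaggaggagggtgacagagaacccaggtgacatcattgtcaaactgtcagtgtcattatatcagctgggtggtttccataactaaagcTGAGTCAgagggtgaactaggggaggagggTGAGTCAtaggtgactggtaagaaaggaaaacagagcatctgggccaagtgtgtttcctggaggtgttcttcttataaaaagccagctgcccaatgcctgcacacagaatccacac
Cyp4b1: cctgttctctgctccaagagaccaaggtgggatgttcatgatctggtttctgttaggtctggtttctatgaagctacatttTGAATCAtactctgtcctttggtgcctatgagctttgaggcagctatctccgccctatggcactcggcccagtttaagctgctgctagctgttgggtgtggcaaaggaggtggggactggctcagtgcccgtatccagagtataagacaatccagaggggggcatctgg

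Tubule injury genes were far above vehicle after the remodeling period. Of 29 tested genes of the injury list 28 rose, with a median log2 fold change of 3.33, or 2.93 relative to the median gene. Without vehicle library 3 the median was 3.39. Havcr1, the kidney injury molecule KIM-1, stood at 327, 270 and 327 RPKM (6.14 ± 0.86, adjusted p = 2.04e-05). Spp1, the secreted phosphoprotein osteopontin, was the most abundant of the named injury genes at 8854, 10311 and 8846 RPKM (3.87 ± 0.28). Vim, the intermediate filament of dedifferentiated cells, went from 16.7, 22.6 and 23.4 RPKM to 328, 311 and 317. Krt20, a keratin of simple epithelia, went from 0.0945, 0.0421 and 1.09 to 51.8, 47.3 and 55.9 RPKM. In all 4 genes the groups stayed apart, vehicle library 3 included. Itgb6, an integrin subunit that activates TGF-beta, was the exception, with 23.5, 22.8 and 22.7 RPKM in vehicle and 15.1, 17.1 and 17.1 at AA 4wk. It fell by 0.47 ± 0.17 (adjusted p = 0.0252), and leaving out vehicle library 1, 2 or 3 or remodeled library 1 ended the call (adjusted p = 0.061, 0.051, 0.05 and 0.0802).

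Genes of DNA damage and of the cell cycle rose side by side. Of 28 p53 targets 23 rose and 1 fell, with a median of 1.59. Gdf15, a stress cytokine, went from 5.89, 8.48 and 5.74 RPKM to 126, 104 and 127 (3.97 ± 0.16, adjusted p = 7.23e-10). Phlda3, a p53-induced inhibitor of Akt, went from 2.86, 2.94 and 3.91 to 58.2, 60.6 and 67 RPKM. Mdm2, the ubiquitin ligase of p53, and the apoptosis effector Bax rose by 1.94 ± 0.30 and 1.24 ± 0.17. All 29 cell cycle genes rose (median 1.85); with quantile normalization 24 rose and 1 fell. Mki67, a marker of cycling cells, read 0.358, 0.339 and 0.888 RPKM in vehicle and 10.8, 9.66 and 5.59 at AA 4wk. Top2a, the topoisomerase of mitosis, read 14.3, 13.2 and 9.13 RPKM at AA 4wk, also with its lowest value in number 3. Of 15 cell cycle inhibitors and genes of senescence secretion, 9 rose, a share near the 55% of all genes, and 4 fell, with a median of 0.64, or 0.24 relative to the median gene. With median-of-ratios scaling 6 rose. Cdkn2a and Cdkn2b, inhibitors of the G1 kinases, rose to 1.5, 2.94 and 1.12 RPKM and to 7.36, 14.2 and 10.3 RPKM. The insulin-like growth factor binding proteins Igfbp3 and Igfbp5 and the lysosomal galactosidase Glb1 fell; for Igfbp3 the adjusted p was 0.0167, and 0.0613 without remodeled library 2.

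Transport genes of the proximal tubule were lower almost throughout. Of 35 tested tubule transporters 31 fell and 1 rose, with a median of -1.80, or -2.20 relative to the median gene. Slc34a1, the main phosphate carrier, went from 2525, 2700 and 2288 RPKM to 789, 434 and 693 (-2.01 ± 0.34, adjusted p = 0.000102). Slc22a6, the organic anion transporter OAT1, went from 365, 373 and 332 to 22.7, 3.96 and 15 RPKM (-4.86 ± 0.57). Slc22a12, the urate carrier, went from 1259, 1054 and 1055 to 86.5, 19.3 and 47.1 RPKM. remodeled library 2 was the lowest of the remodeled libraries for these 3 carriers, and without it the list's median was -1.67. Aqp1, the water channel of proximal tubule and thin limb, fell to 122, 143 and 142 RPKM, with number 1 lowest there. Slc5a2, the glucose carrier SGLT2, changed little by comparison, from 153, 180 and 158 RPKM to 120, 78.3 and 105 (-0.71 ± 0.29, adjusted p = 0.0387). Leaving out vehicle library 1, 2 or 3 or remodeled library 2 or 3 ended that call (adjusted p = 0.0595, 0.103, 0.0664, 0.15 and 0.0613). Abcc4, an efflux pump for organic anions, was the 1 carrier that rose, from 8.69, 8.93 and 9.54 RPKM to 25.7, 24.8 and 22.6 (1.33 ± 0.12).

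Of 20 genes of endocytosis and the brush border 17 fell and none rose, with a median of -1.43; without remodeled library 2 the falls numbered 14. The endocytic receptors Lrp2 (megalin) and Cubn (cubilin) fell by 2.06 ± 0.31 and 1.51 ± 0.30; Lrp2 went from 87.4, 146 and 75.9 RPKM to 33.6, 19.4 and 18.6. The brush border proteases Mep1a and Mep1b and the gamma-glutamyl transferase Ggt1 fell by 3.05, 3.67 and 3.04. All 26 tubule enzymes fell (median -2.54). Miox, which opens the inositol ring, went from 2281, 2678 and 2334 RPKM to 250, 109 and 275, and Cyp2e1, a cytochrome P450, from 703, 791 and 643 to 214, 67.3 and 131. The smallest fall of that list was that of Cyp2d26, at -0.99.

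Transcription factors of the tubule were split. Of 14 tested, 9 fell and 3 rose. Hnf4a, the nuclear receptor that drives proximal tubule genes, went from 298, 279 and 268 RPKM to 101, 65.5 and 88.5 (-1.74 ± 0.17, adjusted p = 9.96e-07), and the bile acid receptor Nr1h4 fell by 1.45 ± 0.21. Pax8, a factor of all nephron epithelium, rose from 47.4, 48.5 and 45.1 RPKM to 73.5, 97.1 and 101 (0.92 ± 0.14). Foxo3 rose too, by 0.79 ± 0.12; the rise of Tfeb by 0.61 ± 0.08 was not called with median-of-ratios scaling or quantile normalization (adjusted p = 0.08 and 0.116). Of 17 genes of kidney development 14 rose and 2 fell (median 1.32). Sox4 rose to 26.1, 29.3 and 27.7 RPKM from 4.33, 4.19 and 5.61. Wnt7b, a ligand of the collecting duct and its bud, and Cdh6, a cadherin of early tubules, rose by 2.96 ± 0.29 and 2.47 ± 0.27. Lhx1 fell by 0.86 ± 0.17. The fall of Osr1 (-0.46 ± 0.15, adjusted p = 0.0146) was not called without vehicle library 3 or remodeled library 1 (adjusted p = 0.0585 and 0.0501).

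Genes of fatty acid burning fell in mitochondria and peroxisomes. Of 24 genes of fatty acid oxidation 20 fell and none rose (median -1.16, or -1.56 relative to the median gene). Acadm, the medium-chain acyl-CoA dehydrogenase, went from 541, 387 and 527 RPKM to 106, 76.4 and 88.7 (-2.41 ± 0.19, adjusted p = 1.68e-07). Acads, its short-chain counterpart, and Cpt2, the inner carnitine transferase, fell by 1.60 ± 0.15 and 1.25 ± 0.24. Cpt1a, the outer carnitine transferase and entry step, read 145, 144 and 152 RPKM in vehicle and 107, 94.3 and 106 at AA 4wk. Its groups did not overlap, but the change of -0.52 ± 0.23 was not called (adjusted p = 0.0533). In a fit of these 2 groups alone it was called (adjusted p = 0.000272). Of 21 peroxisomal genes 19 fell and none rose (median -1.99). Amacr, the racemase of branched fatty acids, fell by 3.34 ± 0.20, Ehhadh, the bifunctional enzyme, by 3.23 ± 0.38, and Nudt19, a coenzyme A hydrolase, by 3.19 ± 0.22. Ppara, the receptor that drives these genes, went from 19, 21.7 and 24.3 RPKM to 12, 9.21 and 9.05 (-1.04 ± 0.29). Ppargc1a, its coactivator, read 18.1, 18.2 and 18.8 RPKM in vehicle and 12.4, 16 and 13.6 at AA 4wk and was not called (-0.38 ± 0.18, adjusted p = 0.066); with median-of-ratios scaling it was (adjusted p = 0.000727).

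Other mitochondrial genes fell too. Of 48 nuclear genes of oxidative phosphorylation 47 fell and none rose. The median was -0.74, or -1.14 relative to the median gene, and the range -1.30 to -0.28. With median-of-ratios scaling all 48 fell (median -1.21), and with quantile normalization 36 fell (median -0.48). Ndufs1, of complex I, went from 127, 138 and 123 RPKM to 53.2, 47.7 and 54.9. Cox4i1, of complex IV, went from 876, 783 and 902 to 566, 518 and 624 RPKM. All 21 genes of the TCA cycle fell (median -0.96; 18 with quantile normalization). Dld, the dihydrolipoamide dehydrogenase, went from 179, 181 and 178 RPKM to 80.6, 70.5 and 82.6 (-1.20 ± 0.12). Cs, citrate synthase, fell least, by 0.25 ± 0.10 (adjusted p = 0.0296), and its direction is lost with quantile normalization (0.02). The call was also lost without vehicle library 1 or 2 or remodeled library 1 or 2 (adjusted p = 0.063, 0.084, 0.0841 and 0.0849). Of 20 genes of branched-chain amino acid breakdown, a pathway known to depend on Klf15 in other tissues, 18 fell and none rose (median -1.34). Aldh6a1, the methylmalonate semialdehyde dehydrogenase, fell by 2.18 ± 0.26 and Ivd, the isovaleryl-CoA dehydrogenase, by 1.95 ± 0.18. Many of these enzymes have processed pseudogenes, whose reads could be assigned to them.

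Sugar metabolism moved both ways. Of 9 genes of gluconeogenesis 7 fell. G6pc, glucose-6-phosphatase, went from 237, 346 and 288 RPKM to 40.3, 19 and 28.6 (-3.31 ± 0.43), and Fbp1 and Pcx fell by 2.01 ± 0.30 and 2.03 ± 0.32. Pck1, the cytosolic carboxykinase, fell from 427, 679 and 575 RPKM to 208, 123 and 184 (-1.71 ± 0.57, adjusted p = 0.0145, and 0.0562 without remodeled library 2). Its mitochondrial counterpart Pck2 rose from 4.43, 5.19 and 4.81 to 8.78, 9.12 and 9.64 RPKM (0.81 ± 0.09), a call lost with quantile normalization (adjusted p = 0.0801). Of 18 glycolysis genes 9 rose and 3 fell, and the median of 0.46 was 0.05 relative to the median gene. Pkm, pyruvate kinase, went from 53.5, 53.5 and 60.1 RPKM to 126, 146 and 159 (1.35 ± 0.12). The glucose carrier Slc2a1 rose by 1.29 ± 0.12, and the hexokinases Hk2 and Hk3 by 2.34 ± 0.34 and 2.68 ± 0.40 from at most 0.152 RPKM in vehicle. Tpi1, Pgk1 and Ldha fell; with quantile normalization the call of Tpi1 was lost (adjusted p = 0.122) and Ldha turned from -0.38 to 0.04. In tryptophan breakdown and NAD synthesis 11 of 15 genes fell: Haao by 3.36 ± 0.37 and Kmo by 2.60 ± 0.25, both on the path from tryptophan to quinolinate, Acmsd, which diverts that path away from quinolinate, by 2.80 ± 0.23, and Qprt, which makes an NAD precursor from quinolinate, by 1.40 ± 0.15. Without remodeled library 2 the falls of this list numbered 8. Nampt, the salvage enzyme, read 43.2, 40.4 and 51.4 RPKM in vehicle and 46.5, 58.7 and 51.3 at AA 4wk, with overlapping groups (0.21 ± 0.15, adjusted p = 0.212). Nnmt, which methylates nicotinamide, and Cd38, which consumes NAD, rose by 2.19 ± 0.48 and 2.03 ± 0.25. In cholesterol synthesis 5 of 15 genes rose and 6 fell, with 3 rises without remodeled library 2 or vehicle library 3, and 1 rise and 10 falls with median-of-ratios scaling. Cyp51 and Hmgcs1 fell by 2.08 ± 0.16 and 1.70 ± 0.10.

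Matrix genes rose together. Of 34 genes of collagens and other matrix 30 rose and 1 fell (median 2.16, or 1.76 relative to the median gene). With median-of-ratios scaling 26 rose and with quantile normalization 24. Without vehicle library 3 the rises numbered 26, without remodeled library 1 they numbered 25, and without remodeled library 2 they stayed at 30. Col1a1, the fibrillar collagen, went from 6.16, 6.96 and 8.9 RPKM to 98.4, 101 and 92.8 (3.57 ± 0.86, adjusted p = 0.00176). Col3a1 went from 9.64, 9.59 and 15 to 145, 144 and 131 RPKM, and Fn1, fibronectin, from 3.77, 5.45 and 5.27 to 74.8, 92 and 51.8. Each remodeled library lay above each vehicle library for these 3 genes. The spread behind the SE is pooled over all groups, and the AA 2wk libraries differed widely for this list: PTKO AA 2wk number 3 stood at -0.31 for the list's mean log2 difference from vehicle, the other AA 2wk libraries of that genotype at 1.96 and 1.39, and the remodeled libraries between 2.15 and 2.23. Col12a1, of the fibril surface, had the largest rise of the list at 4.37 ± 0.63. Col4a3, of the mature basement membrane of glomeruli, was the 1 that fell, from 39.9, 40.9 and 30.3 RPKM to 22.2, 25.3 and 20.7 (-0.67 ± 0.21).

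Of 18 matrix proteases and their inhibitors 16 rose (median 3.0). Mmp2, a gelatinase of stromal cells, went from 1.29, 1.98 and 2.16 RPKM to 56.7, 65.6 and 77.5. Mmp7, matrilysin, is listed at 0 in all vehicle libraries and stood at 3.89, 13.3 and 9.65 RPKM at AA 4wk. Timp1, an inhibitor of these proteases, rose by 4.79 ± 0.81, while Timp3, the matrix-bound inhibitor, fell from 722, 699 and 655 to 310, 267 and 290 RPKM (-1.26 ± 0.14). Of 13 fibroblast and pericyte genes 10 rose and none fell (median 1.54). Acta2, smooth muscle actin, went from 9.1, 20.6 and 13.9 RPKM to 66.8, 46.7 and 71.3 (2.06 ± 0.59), and Pdgfrb, the receptor of pericytes, rose by 1.27 ± 0.37. The summed level of the fibroblast list went from 116, 160 and 137 RPKM to 516, 449 and 546. In the TGF-beta pathway 14 of 18 genes rose and none fell (median 1.12); with quantile normalization 11 rose and 4 fell. The ligand Tgfb1 went from 10.3, 11.2 and 10.6 RPKM to 63.3, 68.1 and 65.2 (2.51 ± 0.27), and the matrix target Tgfbi rose by 3.09 ± 0.33. Bmp7, which opposes TGF-beta in the tubule, read 22.9, 21.4 and 22.6 RPKM in vehicle and 16.9, 17.2 and 20.6 at AA 4wk and was not called (-0.28 ± 0.15, adjusted p = 0.104); with median-of-ratios scaling it was (-0.74, adjusted p = 0.00335).

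Genes of macrophages and T and NK cells were far above vehicle. Of 21 macrophage genes 20 rose and none fell (median 3.84, or 3.44 relative to the median gene), and their summed level went from 131, 106 and 156 RPKM to 4270, 5118 and 3669. Emr1, the F4/80 antigen, went from 2.28, 2.01 and 2.5 RPKM to 52, 49.2 and 37.3 (3.84 ± 0.51). C1qa, a subunit of the first complement component made by macrophages, went from 19.7, 15.1 and 22.2 to 608, 720 and 573 RPKM (5.0 ± 0.45). Mertk, a receptor for dying cells, was at 0.00 and not called. All 15 T and NK cell genes rose (median 3.12): Cd3e stood at 15.3, 14.7 and 11.9 RPKM and Cd4 at 16.5, 19.8 and 18.6, from under 1 RPKM in each vehicle library, and the list's sum went from 4.03 to 6.36 RPKM up to 168 to 185. Their summed levels moved with the fall of tubule genes; the part of cell mixture in the tubule results was not tested. Of 10 B and plasma cell genes only 4 were abundant enough to test and 3 rose, or 2 with either other scaling and without any single library other than remodeled library 2. The call lost is that of Cd79a, an antigen receptor subunit (0.59 in the main scaling, -0.19 with quantile normalization). Cd79b read 6.13, 5.14 and 3.57 RPKM and Igj, the joining chain of secreted antibodies, 25.2, 36.4 and 26.1 at AA 4wk, while Ms4a1 stayed at most 0.305 RPKM in every library. Neutrophil genes were low throughout. Of the 9 that have a value, 3 were abundant enough to test, and Csf3r was the 1 that rose, to 5.66, 6.55 and 5.33 RPKM. Without remodeled library 1 a second, S100a9, was called (adjusted p = 0.0448). S100a8 and S100a9 overlapped between groups, with 0.872, 5.04 and 1.39 and with 1.41, 6.09 and 2.95 RPKM at AA 4wk, and Mpo and Elane reached at most 0.0549 and 0.076 RPKM in any of the 6 libraries.

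Signals that draw and direct these cells rose as well. Of 29 chemokines and cytokines 26 rose and 1 fell (median 2.78). Ccl5, a T cell attractant, went from 2.41, 1.23 and 3.55 RPKM to 148, 172 and 161 (5.63 ± 0.65), Ccl2, a monocyte attractant, from 1.47, 0.404 and 6.24 to 47.2, 55.5 and 46.7, and Csf1, the macrophage growth factor, from 2.64, 3.02 and 3.24 to 69.9, 75.8 and 69.6. For Ccl2 too the highest vehicle value was that of vehicle library 3. Tnf rose less in level, to 3.27, 2.39 and 1.98 RPKM. Ccl28, an epithelial chemokine, read 7.48, 10.2 and 9.51 RPKM in vehicle and 4.45, 4.67 and 2.83 at AA 4wk (-1.02 ± 0.41, adjusted p = 0.0346), and its call was lost without vehicle library 2 or 3 or remodeled library 1 or 3 (adjusted p = 0.0893, 0.0783, 0.0508 and 0.117). Of 15 complement genes 12 rose: C3, the central component, went from 3.64, 4.74 and 12.7 RPKM to 317, 572 and 295. Cfb, a factor of the alternative pathway, was already at 188, 178 and 190 RPKM in vehicle and stood at 162, 128 and 126 (-0.42 ± 0.18, adjusted p = 0.0412, lost without vehicle library 1, 2 or 3 or remodeled library 2 or 3, at 0.0865, 0.0627, 0.0917, 0.118 and 0.123). All 15 genes of antigen presentation rose (median 3.41). Cd74, the invariant chain of MHC class II, went from 201, 144 and 240 RPKM to 4426, 4223 and 3817, and B2m, the light chain of class I, from 449, 431 and 483 to 3565, 4140 and 3513. Of 22 interferon response genes 20 rose and none fell (median 2.47), led by Gbp2, a guanylate-binding protein, from 7.99, 4.74 and 8.28 RPKM to 152, 168 and 142 (4.30 ± 0.53).

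**Figure D3:**
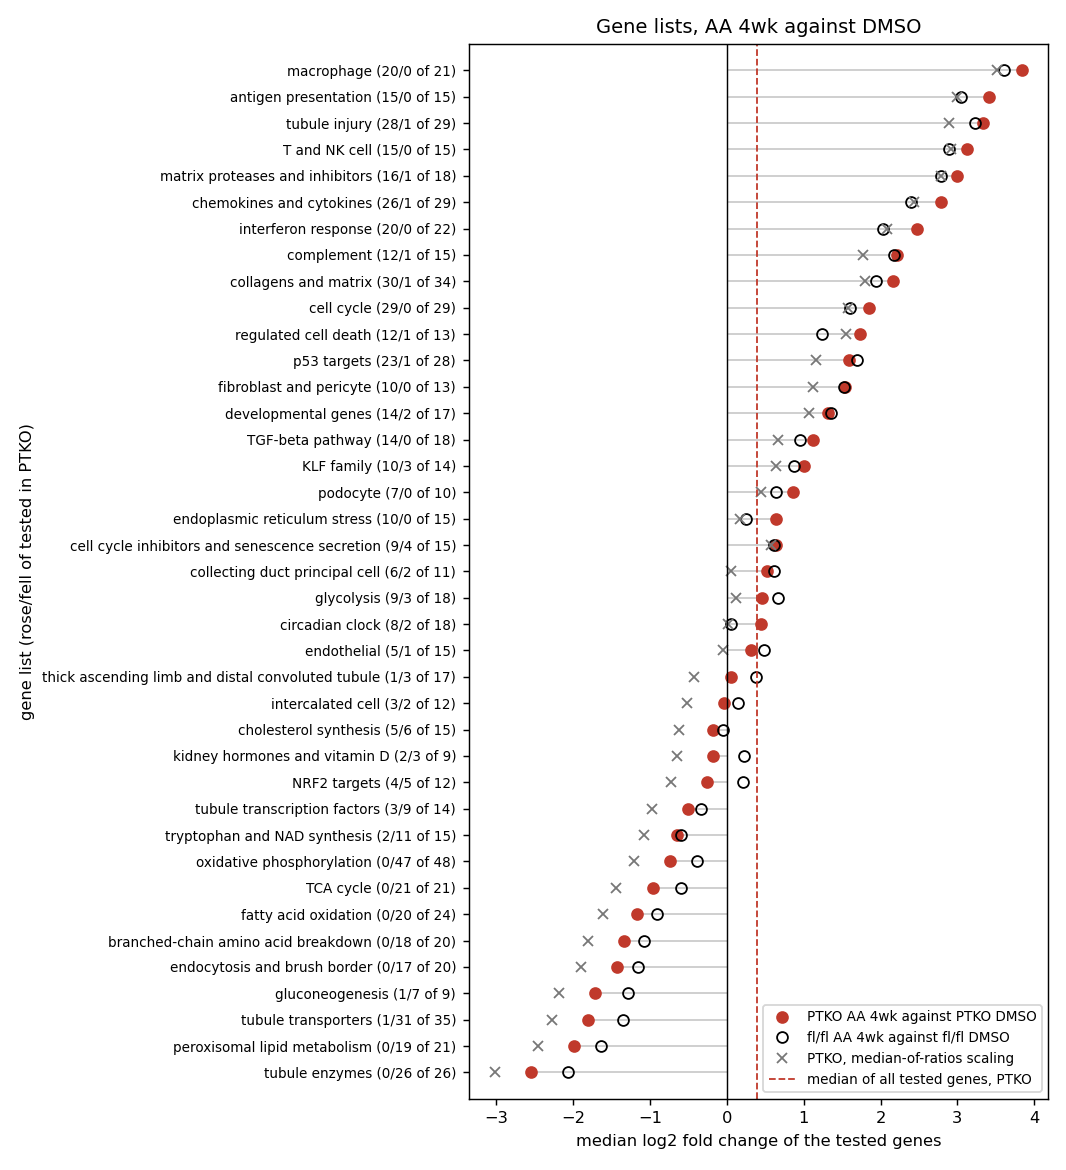
Median log2 fold change of the tested genes in each list with at least 9 of them, for PTKO (filled), fl/fl (open) and PTKO with median-of-ratios scaling (crosses), with the PTKO median of all genes (0.40) dashed; labels give how many genes rose and fell of those tested. Immune and injury lists stand above 2 and tubule enzymes and peroxisomal genes near or below -2, and the lists of other nephron segments and vessels lie around the dashed line or zero.

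Downstream of the proximal tubule, called genes went both ways, and most thick limb and intercalated cell genes were not called. Of 17 genes of the thick ascending limb and distal convoluted tubule 1 rose, 3 fell and 13 were not called. Of all genes 55% rose and 17.3% fell, so the share of falls is near that of all genes. With median-of-ratios scaling 6 fell and the median of 0.05 turned to -0.43, and with quantile normalization 5 fell. Umod, the uromodulin of the thick limb, read 1804, 1702 and 2010 RPKM in vehicle and 1704, 2215 and 2618 at AA 4wk, and its groups overlapped (0.23 ± 0.43, adjusted p = 0.646). The sodium carriers Slc12a1 and Slc12a3 were not called either (-0.20 ± 0.49 and 0.05 ± 0.31). Yet Egf, the growth factor made by the same segment, went from 342, 338 and 297 RPKM to 34.2, 34.9 and 42.6 (-3.10 ± 0.67, adjusted p = 0.000799), and Pvalb, a calcium-binding protein of the distal convoluted tubule, from 26.4, 27.7 and 31 to 0.315, 1.09 and 1.21 (-4.0 ± 0.48, adjusted p = 5.24e-06). Klhl3, the ubiquitin ligase adaptor that controls Slc12a3, fell by 0.86 ± 0.21 and Cldn16, a tight junction protein of the thick limb, rose by 1.10 ± 0.14.

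Of 11 genes of collecting duct principal cells 6 rose and 2 fell, shares near the 55% and 17.3% of all genes (3 rose with median-of-ratios scaling). Among the rises were the sodium channel subunit Scnn1b (1.22 ± 0.18) and the factor Gata3 (1.16 ± 0.13). Aqp4, a basolateral water channel, fell from 22.4, 13.1 and 11.8 RPKM to 2.27, 3.93 and 2.58 (-2.07 ± 0.40), Aqp3 by 0.68 ± 0.27 (adjusted p = 0.0321), and Aqp2, the channel under vasopressin control, overlapped between groups at 85.9, 62.6 and 97.6 against 82.1, 132 and 119 RPKM. The call of Aqp3 was lost without vehicle library 1, 2 or 3 or remodeled library 1 (adjusted p = 0.0637, 0.0522, 0.0806 and 0.108). Of 12 genes of intercalated cells 3 rose, 2 fell and 7 were not called, with the share of falls again near that of all genes. With median-of-ratios scaling 2 rose and 6 fell. Aqp6 and Foxi1 rose by 1.27 ± 0.28 and 0.89 ± 0.16, and the proton pump subunit Atp6v1b1 was not called (0.11 ± 0.19, adjusted p = 0.625). The anion exchangers Slc4a1 and Slc26a4 read -0.77 ± 0.27 and -0.58 ± 0.25, with adjusted p of 0.0196 and 0.0494; leaving out vehicle library 2 gave 0.0501 and 0.129, leaving out remodeled library 1 gave 0.0533 and 0.062, and for Slc26a4 each of the other 4 left out gave 0.0708 to 0.132. In podocytes, the filtration cells of the glomerulus, 7 of 10 genes rose (median 0.86; 4 with quantile normalization), but Nphs1, which encodes nephrin of the slit diaphragm, was not called (0.46 ± 0.33, adjusted p = 0.22). Its groups did not overlap. Nphs1 was called with sample quality weights (adjusted p = 0.0101) and in a fit of PTKO DMSO and PTKO AA 4wk alone (adjusted p = 0.0158). With median-of-ratios scaling its change was 0.05. Of 15 endothelial genes 5 rose and 1 fell, and the median of 0.31 turned to -0.05 with median-of-ratios scaling. Without remodeled library 3 the rises numbered 3, and with quantile normalization 1 rose and 3 fell.

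Genes of cell stress and cell death rose in part. Of 15 genes of endoplasmic reticulum stress 10 rose, beside 55% of all genes (median 0.64, or 0.24 relative to the median gene). With median-of-ratios scaling 7 rose (median 0.17), and leaving out any single PTKO library gave 9. Ddit3, the factor CHOP, went from 7.33, 8.12 and 9.23 RPKM to 35.4, 30.3 and 35.7 (1.91 ± 0.20), and the stress factor Atf3 rose by 3.05 ± 0.35, while the chaperone Hspa5 was not called (0.42 ± 0.30, adjusted p = 0.218). Hspa5 was called higher with quantile normalization and sample quality weights (adjusted p = 0.0442 and 0.0348). In a fit of PTKO DMSO and PTKO AA 4wk alone it was called too (adjusted p = 0.00215). Of 13 genes of regulated cell death 12 rose (median 1.73). Ripk3 and Mlkl, the kinase and the effector of necroptosis, rose by 3.04 ± 0.29 and 2.26 ± 0.32. Casp1 and Gsdmd, of pyroptosis, rose by 2.86 ± 0.39 and 2.90 ± 0.38. Gpx4, which guards against ferroptosis, was the 1 that fell, from 72.7, 61.1 and 73 RPKM to 38.9, 37.5 and 41.7 (-0.79 ± 0.14). Of 12 genes of the NRF2 list, which holds Nfe2l2 besides targets, 4 rose and 5 fell, beside 55% and 17.3% of all genes. The median was -0.26, or -0.66 relative to the median gene, and with median-of-ratios scaling 3 rose and 6 fell. Nfe2l2, which encodes NRF2, rose by 1.30 ± 0.15 and Hmox1, heme oxygenase, by 0.95 ± 0.13. Nqo1, Gclm and Me1 fell by 0.97 ± 0.25, 1.16 ± 0.11 and 2.37 ± 0.15.

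Of 14 Krüppel-like factors, Klf15 included, 10 rose and 3 fell. Klf6, an early injury factor, went from 9.54, 7.97 and 12.2 RPKM to 76.9, 79.3 and 77.3 (2.87 ± 0.29), and Klf5 and Klf4 rose by 2.65 ± 0.32 and 2.23 ± 0.25. Besides Klf15, Klf9 and Klf12 fell by 0.58 ± 0.16 and 0.65 ± 0.16. Among clock genes 8 of 18 rose, a share below the 55% of all genes, and 2 fell. The median of 0.45 was 0.05 relative to the median gene and turned to -0.10 with quantile normalization (4 rises). Without vehicle library 3 the rises numbered 10 (median 0.57), and without any one of the others 6 or 7; without remodeled library 1 or 3 or vehicle library 2 the falls numbered 1. Per1 went from 2.7, 3.5 and 4.72 RPKM to 19.2, 25.4 and 25.2 (2.40 ± 0.35), and Hlf fell by 1.72 ± 0.24. The vehicle libraries differed among themselves for other clock genes: Arntl read 5.16, 4.22 and 1.54 RPKM, Npas2 4.98, 2.84 and 0.869, and Dbp 23.4, 23.2 and 46.9, so that vehicle library 3 stood apart here too. No source used here gives the time of collection, and the part of collection time in the clock results was not tested. Of 9 tested genes of kidney hormones and vitamin D 2 rose, 3 fell and 4 were not called (median -0.18), beside 55% and 17.3% of all genes. The largest rise was that of Nr3c2, at 0.60, and with median-of-ratios scaling none rose and 4 fell. Kl, the anti-aging co-receptor Klotho, went from 250, 264 and 222 RPKM to 75.9, 68.8 and 79.5 (-1.70 ± 0.17, adjusted p = 9.05e-07). Pth1r, the parathyroid hormone receptor, and Vdr, the vitamin D receptor, fell by 1.48 ± 0.19 and 1.14 ± 0.16, and Cyp27b1, which activates vitamin D, was not called (0.20 ± 0.28).

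**Figure D4:**
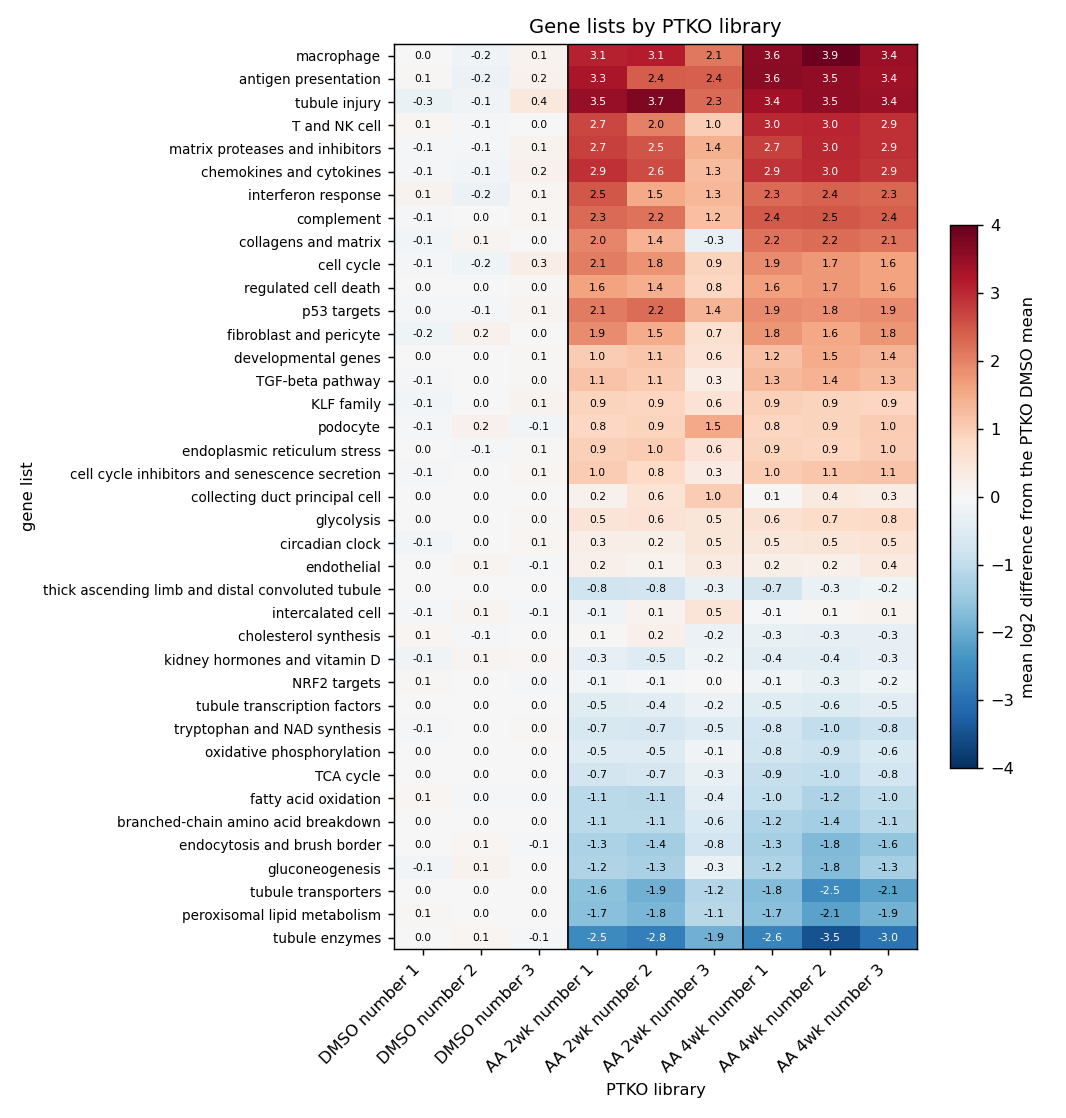
Mean log2 difference from the PTKO DMSO mean for each gene list (rows) in each PTKO library (columns), coloured from -4 (blue) to 4 (red). Tubule enzymes stand at -2.64, -3.48 and -2.96 in AA 4wk numbers 1 to 3, and AA 2wk number 3 is nearer to vehicle than the other AA libraries in most lists.

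PTKO cortex taken at the end of the toxin course, without the remodeling weeks, was compared with the same vehicle libraries, so both sets of values share them and are given side by side only. Its list medians were 3.05 for injury, 1.04 for collagens and matrix, 3.22 for macrophage, -1.25 for tubule transporters, -0.77 for fatty acid oxidation and -0.37 for oxidative phosphorylation. After remodeling they were 3.33, 2.16, 3.84, -1.80, -1.16 and -0.74. PTKO AA 2wk number 3 lay nearer to vehicle than the other AA 2wk libraries, at 2.26 for injury against 3.49 and 3.72, and at -1.17 for tubule transporters against -1.64 and -1.91. The difference between the time points was not tested here.

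The same comparison in fl/fl cortex shares no library with this one. There 9028 genes were called (66.3%), 7074 higher (51.9%) and 1954 lower (14.3%), and the median gene changed by 0.35. Across the 13624 genes, which are not independent replicates, the log2 fold changes of the genotypes correlated at r = 0.97. Of the genes that rose in PTKO 86.7% rose in fl/fl (6494 genes), and of those that rose in fl/fl 91.8% rose in PTKO. Of the genes that fell in PTKO 76.8% fell in fl/fl (1805 genes), and of those that fell in fl/fl 92.4% fell in PTKO. The 39 lists with at least 9 tested genes were compared by their medians, and 31 were further from zero in PTKO, among them tubule transporters (-1.80 against -1.35), tubule enzymes (-2.54 against -2.06), fatty acid oxidation (-1.16 against -0.90) and oxidative phosphorylation (-0.74 against -0.38, with 47 and 29 of 48 genes fallen). Further from zero in fl/fl were 8, among them p53 targets (1.69 against 1.59), glycolysis (0.67 against 0.46), the thick limb list (0.38 against 0.05) and endothelial genes (0.49 against 0.31). All lists were measured in the same libraries and are not independent, so the counts of lists are no test of a genotype difference. Distance from zero also depends on the scaling. No gene of these lists was called for a difference between genotypes. Slc22a6, with -4.86 in PTKO and -3.41 in fl/fl, gave an interaction of -1.44 ± 0.80 (adjusted p = 0.934), and Per1, with 2.40 and 0.46, gave 1.94 ± 0.49 (adjusted p = 0.934).

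A test of the difference itself, the interaction of genotype and treatment, called 1 gene of 13624 (0.00734%), and 635 had an unadjusted p under 0.05. With median-of-ratios scaling it called 3, and with sample quality weights 161 (54 higher and 107 lower). That gene was Hprt, the purine salvage enzyme hypoxanthine phosphoribosyltransferase, on chromosome X, 52988137 to 53021659, plus strand of GRCm38. In PTKO cortex it went from 20.9, 15.9 and 15.1 RPKM to 7.09, 4.84 and 6.82, a fall by 1.34 ± 0.14 (adjusted p = 1.6e-06). In fl/fl cortex it went from 54.5 ± 6.67 to 83.6 ± 5.98 RPKM (SD, n = 3 each), a rise by 0.61 ± 0.14 (limma, adjusted p = 0.00135). The interaction was -1.95 ± 0.20 (adjusted p = 0.000756). Called in opposite directions in the genotypes were 3 genes, Hprt, Tmem86a and Actr1b, the last named after their values were seen. Tmem86a, a lysoplasmalogenase, read 31.1, 29 and 35.2 RPKM in PTKO vehicle and 22.8, 28.4 and 24.7 at AA 4wk (-0.32 ± 0.14, adjusted p = 0.0486; fl/fl 0.69 ± 0.14), with an interaction of -1.01 ± 0.20 (adjusted p = 0.376). Actr1b, a dynactin subunit, went from 57.1, 55.6 and 59.4 RPKM to 49.1, 45.8 and 49.1 in PTKO (-0.25 ± 0.06; fl/fl 0.16 ± 0.06), with an interaction of -0.41 ± 0.09 (adjusted p = 0.729). The call of Tmem86a in PTKO was lost in 13 of the other settings.

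**Figure D5:**
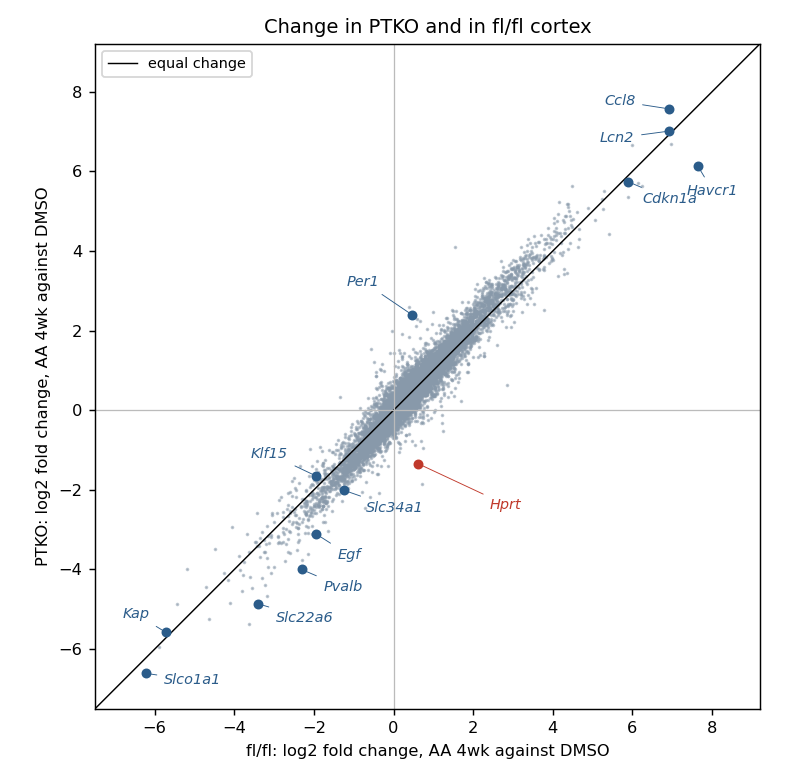
Log2 fold change of AA 4wk against DMSO in PTKO (vertical) against fl/fl (horizontal), 1 point per tested gene, with the line of equal change. Most genes lie near the line (r = 0.97), and Hprt (red) lies at 0.61 in fl/fl and -1.34 in PTKO.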

How the data were processed

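RNA was sequenced from kidney cortex by a stranded total RNA protocol, per the labels' protocols. The authors deposited 1 RPKM value per gene and library; the unit is taken from the name of the deposited table, and the submitters' processing notes name bcl2fastq 2.19, kallisto and mm10, with no role. No source used here gives the gene lengths, the annotation, how reads were assigned or whether strand was used. RPKM depends on all other genes of a library, so the loss of abundant transcripts raises the values of the rest. Whole reads were recovered from the steps between values for 100% of the 17579 genes above 0 in at least 6 libraries (tolerance 0.02 reads), which gave the depths.

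Values were tested as log2(RPKM + 1) with limma 3.58.1 (statmod 1.5.0, R 4.3.3): 6 group means over all 18 libraries, robust empirical Bayes moderation with a mean-variance trend. The fit was run on simulated data in which few genes changed, in both directions. Most genes change in these data, so that run does not bear on the scaling or the split by direction. All groups enter the fit so that they share 1 estimate of the spread. Tests are two-sided, with Benjamini-Hochberg adjustment over 13624 genes and calls at 0.05; "rose" and "fell" mean called. Fold changes are on the log2(RPKM + 1) scale with their SE and understate changes of low genes. An exact permutation test of 3 against 3 libraries cannot go below 0.1. Intervals from 3 libraries limit the precision throughout.

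Genes were named by a rule: the 15 largest rises and falls among called genes whose groups do not overlap and whose higher mean is at least 10 RPKM; set lead genes of 43 lists; in each list up to 3 called members with the largest change each way; genes called for interaction; and the 5 smallest adjusted p each way. The lists hold 792 genes of the table, 757 tested, with 11 genes in more than 1 list. The comparison, lists and rule were chosen with earlier results of these data known. Coordinates of genes are from GENCODE M21 on GRCm38. Alternatives were another pseudocount, filters, median-of-ratios scaling, quantile normalization, no trend, sample quality weights, fewer groups, a replicate block, voom on the recovered reads and leaving out libraries. Of the gene names 27 read as dates, and no mitochondrially encoded gene has a row here. Some named genes and 1 planned motif are not reported here.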

Additional observations from a re-analysis of the deposited data

Results flagged for a closer look

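Hprt differed between genotypes in how it changed: the interaction log2 fold change of genotype and AA 4wk was -1.95, a test of the difference itself. All 3 remodeled PTKO libraries (7.09, 4.84 and 6.82 RPKM) lay below all 3 PTKO vehicle libraries (20.9, 15.9 and 15.1 RPKM). PTKO vehicle cortex already held less Hprt than fl/fl vehicle cortex, 17.3 ± 3.12 against 54.5 ± 6.67 RPKM (SD, n = 3 each). The cause was not tested.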

How the results depend on the processing

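The count of 9839 calls stayed within 1.5 times of itself under every alternative run, from 8952 with quantile normalization to 11269 without a filter on low values; with voom on the recovered reads it was 9745. Leaving out each PTKO library in turn gave 9039 to 9357. The split by direction moved: 4482 higher and 4616 lower with median-of-ratios scaling, 3985 and 4967 with quantile normalization. Both rescale the libraries, and the cause of the shift was not tested further. The interaction called 3 genes, all 3 lower, with median-of-ratios scaling and 161 with sample quality weights (54 higher, 107 lower), and 1 under each other alternative. Deviations from the group means correlated at 0.06, -0.11 and -0.02 between same-numbered libraries, and at -0.11 to 0.11 between differently numbered ones. With 3 libraries per group, whether the samples are paired cannot be told from these values. With a replicate block 9903 genes were called. Of 265 named genes tested 220 kept call and sign under all alternatives. The sign reversed with quantile normalization for Cs (0.02), Ldha (0.04), Cd79a (-0.19), Star (-0.57), Ddx3y (-0.28), Nos3 (-0.04), Nr3c2 (-0.08) and Kdm5d (-0.22), and with median-of-ratios scaling for Ddx3y (-0.28); the cause was not tested. Genes near 1 RPKM rest on few reads at these depths, and small changes there were not detectable.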
